A study of Saccharomyces cerevisiae with 8 samples.

Results

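The weak sites described here are stretches of meiotic yeast RNA at which Pho92 gave a low peak score in both replicate libraries. Same-strand peaks that touched, taken over the 2 Pho92-HTP and the 2 ime4 mutant libraries, were joined and gave 105079 regions. The value of a region in a library is the summed normalized score of its peaks, and 0 where no peak is listed. A weak site had a value from 0.1 to 0.9 in both Pho92-HTP libraries and at most 0.9 in both libraries of the ime4 mutant, and lay outside contig NCSL01000092.1. The limit of 0.9 is the one above which the authors counted peaks. The first condition held for 1147 regions. Of these, 1 was on that contig and 21 others exceeded 0.9 in an ime4 mutant library, which left 1125 weak sites. Sites above 0.9 in both Pho92-HTP libraries, called strong sites below, numbered 822 outside that contig. A further 1793 regions outside it were in the weak window in 1 Pho92-HTP library only. They scored below 0.1 in the other and at most 0.9 in all 4 libraries. Regions above 0.9 in the other library are thus not among them.

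Pho92 is the YTH-domain protein of budding yeast, a reader that binds N6-methyladenosine (m6A) in RNA. The mark is placed during meiosis by a methyltransferase complex whose catalytic subunit is Ime4, and yeast cells growing by mitosis carry little of it. Contacts that need the mark depend on IME4, whereas RNA that the protein touches in other ways can still be crosslinked without it. CRAC crosslinks RNA to a tagged protein in living cells with UV light, purifies the protein under denaturing conditions and sequences the RNA that stays attached. A peak thus reports contact, and its height follows both how often the protein is bound and how abundant the RNA is. Fewer contacts per RNA molecule and less of the RNA cannot be told apart here.

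All cells were diploid SK1 yeast in meiosis, with IME1 under a copper-inducible promoter (pCUP-IME1). They were collected after 5 h in sporulation medium, 3 h after IME1 was induced with 50 μM copper sulfate. The ime4 mutant group carried Pho92-HTP in an ime4 mutant, whose allele the labels do not specify beyond the deposited sheets' name of ime4ko. The Pho92-HTP group carried the tagged protein with IME4 intact. These groups and the untagged WT group, which had no HTP tag, were irradiated at 254 nm for 80 s. The no UV group carried Pho92-HTP and was not irradiated. Each of the 4 groups had 2 libraries, described in the series text as biological replicates, and crosslinked fission yeast cells with Luc7-HTP were added to every sample as a spike-in.

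The number of peaks listed per library was 47377 and 60778 in the ime4 mutant, 66344 and 41604 in Pho92-HTP, 2925 and 2462 without UV, and 2659 and 2138 in untagged WT. Library sizes in reads are unknown. From the values, the score is the squared peak height divided by peak width, and dividing out the smoothing turns a height into read equivalents. At a width of 32 nt, a normalized score of 0.1 stood for a summit of 51.1 and 67.1 read equivalents in the ime4 mutant and of 67.3 and 27.6 in Pho92-HTP. The weak window thus began at a lower depth in Pho92-HTP replicate 2. The spike-in factors were 1.73 and 1.01 in the ime4 mutant, and 1 and 5.92 in Pho92-HTP. The deposited spike-in factors of the no UV and untagged WT sheets are exchanged relative to the deposited table of factors. Those sheets are used as deposited, and the control libraries are named by their labels.

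The scores in Pho92-HTP were set by the choice of sites and are given as a description. Their median was 0.269 in replicate 1 and 0.277 in replicate 2, with quartiles of 0.171 and 0.453 in replicate 1 and of 0.172 and 0.451 in replicate 2. The 2 replicates differed by less than 2-fold at 772 of the 1125 sites (68.6%), and the median log2 ratio of replicate 2 over replicate 1 was 0.00. Just inside the lower limit, a site on NCSL01000010.1 at 198239 scored 0.1003 in its lower Pho92-HTP library, and just outside it a region on NCSL01000006.1 at 104667 scored 0.0999. Just inside the upper limit, a site on NCSL01000018.1 at 162087 scored 0.8997 in its higher library, and just outside it a region on NCSL01000055.1 at 17226 scored 0.904. The median length of a weak site was 51 nt.

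Most weak sites scored far lower in the ime4 mutant than with IME4 intact. The median score was 0.00369 and 0.00374 in the 2 ime4 mutant libraries, against 0.269 and 0.277 in the 2 Pho92-HTP libraries. The highest scores of any weak site in the mutant were 0.806 and 0.853. Where both mutant libraries had a peak, their scores were within 2-fold of each other at 315 of 771 sites (40.9%). The groups did not overlap at 1004 weak sites (89.2%), where both mutant libraries were below both Pho92-HTP libraries, and 72.4% of all 2681 tested regions had that order. Both mutant libraries were above both Pho92-HTP libraries at 12 weak sites, against 5.15% of all tested regions. Because a weak site had to score at least 0.1 in Pho92-HTP and at most 0.9 in the mutant, the rule itself favours a low mutant value, and nothing is read from these shares.

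**Figure D1:**
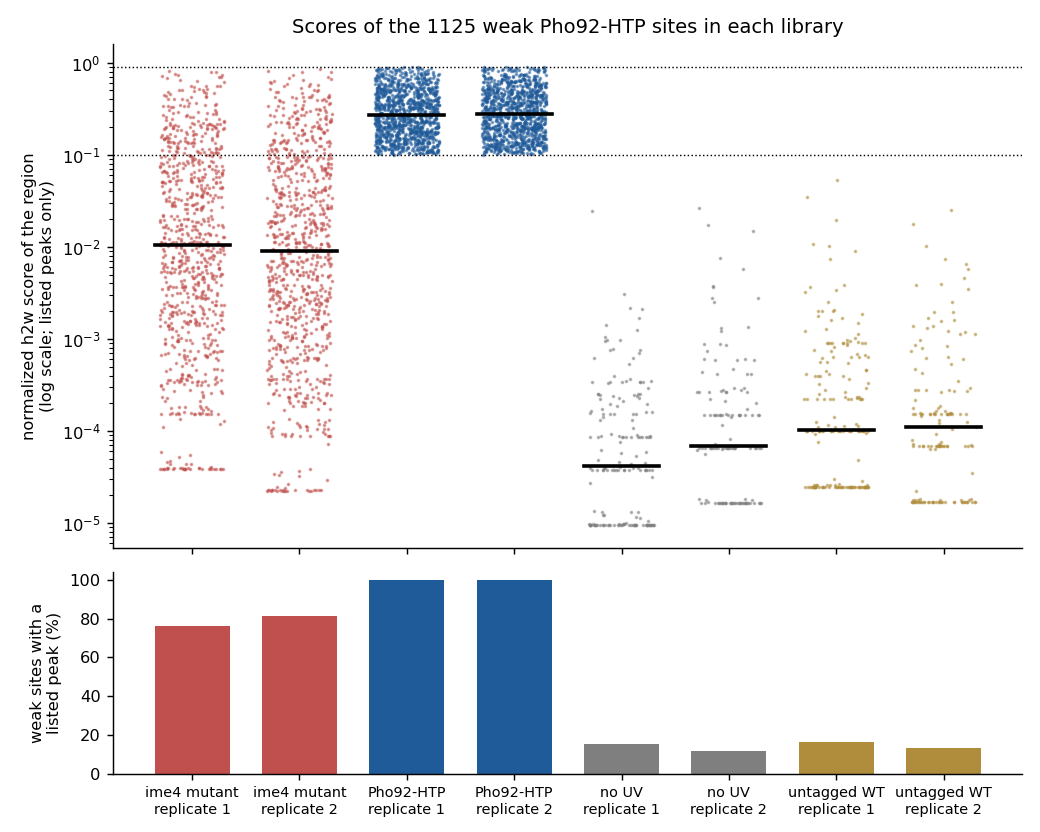
Normalized scores of the 1125 weak sites in each of the 8 libraries (upper panel, log axis, listed peaks only) and the percentage of weak sites with a listed peak in that library (lower panel). Each point is a site, the black bar is the median of the listed peaks and the dotted lines are the limits of 0.1 and 0.9. The Pho92-HTP libraries fill the window from 0.1 to 0.9 by choice of the sites, the ime4 mutant libraries spread over several orders of magnitude with peaks listed at 76.3% and 81.6% of the sites, and control peaks are fewer and low.

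On the log2 scale of normalized score plus a pseudocount of 2.28e-05, the median difference of the ime4 mutant minus Pho92-HTP was −6.70, with quartiles of −10.38 and −2.90 and a range from −15.15 to 1.81. Any single mutant library set against any single Pho92-HTP library gave a median between −6.34 and −6.15, with 1065 to 1067 sites lower in the mutant. A score grows with the square of the height, so the change in height is smaller than the change in score. At the 771 sites with a peak listed in all 4 libraries the median log2 difference in score was −4.46, which is a peak 4.70-fold lower in height. The median summit was 9.67 and 13.0 read equivalents in the ime4 mutant, against 112 and 46.3 in Pho92-HTP. In limma across all 2681 regions with Benjamini-Hochberg adjustment, 668 weak sites were called lower in the mutant (59.4%) and 54.1% of all tested regions were. None was called higher, with 0 at an unadjusted p below 0.05 in that direction, and 0.97% of all tested regions were called higher. The same values chose the sites, so these calls describe them and are no separate evidence. Leaving out Pho92-HTP replicate 1 or replicate 2 greatly reduced the calls, at weak sites and over all tested regions alike. The median at weak sites moved only to −6.84 and −6.75. With a pseudocount of 0.01 the median was −3.98.

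The log2 difference covered a wide range among the weak sites, and 4 classes describe it. A log2 difference below −8 was found at 462 sites (41.1%), from −8 to −4 at 309 sites (27.5%), from −4 to −2 at 148 sites (13.2%) and within 2 of zero at 206 sites (18.3%). No weak site was above 2. In all, 919 weak sites (81.7%) were below −2, where 68% of all tested regions were. In the class below −8 the median scores were 0 and 3.8e-05 in the ime4 mutant, against 0.311 and 0.298 in Pho92-HTP. That is a median summit of 0 and 1.10 read equivalents in the mutant, against 117 and 48.2 in Pho92-HTP. In the class within 2 of zero the median scores were 0.166 and 0.172 in the ime4 mutant, against 0.262 and 0.271 in Pho92-HTP, and the summits held 69.6 and 92.5 read equivalents in the mutant. The Pho92-HTP medians of the 4 classes lay close together, between 0.242 and 0.311, as the choice of sites within 0.1 to 0.9 requires. The classes therefore separate the sites by their mutant scores. They hold for the pseudocount of 2.28e-05 only. With one of 0.01 the median over all weak sites was −3.98 in place of −6.70. In the class below −8, a mutant peak was listed at 206 sites in replicate 1 and at 262 in replicate 2. A site of this class can still have a mutant peak beside it. On NCSL01000039.1 at 76763 the ime4 mutant scores were 0 and 0, with 0.564 and 0.403 within 50 nt.

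A site on NCSL01000005.1 from 229227 to 229276 on the minus strand had the largest drop among sites with a peak in all 4 libraries. Its scores were 3.82e-05 and 2.30e-05 in the ime4 mutant, against 0.897 and 0.198 in Pho92-HTP, a log2 difference of −12.96 ± 1.01 (SE). A listed peak of that size in the mutant is a single read equivalent. A site on NCSL01000004.1 from 422638 to 422674 on the plus strand scored 3.82e-05 and 0.000117 in the ime4 mutant, against 0.752 and 0.573 in Pho92-HTP, a difference of −12.80. Its nearest strong site, 9590 nt away, did not fall with it and scored 308 and 128 in the ime4 mutant, against 105 and 176 in Pho92-HTP. The groups overlapped there, with a difference of 0.55. A site on NCSL01000002.1 from 224859 to 224916 on the plus strand lay only 280 nt from a strong site that was itself almost empty in the mutant. The weak site scored 5.26e-05 and 2.22e-05 in the ime4 mutant, against 0.317 and 0.314 in Pho92-HTP. The strong site scored 0 and 0.00101 in the ime4 mutant, against 12.2 and 43.0 in Pho92-HTP. Of the 5 lowest sites, the other 2 were on NCSL01000001.1 at 301936 and NCSL01000040.1 at 16061, with differences of −12.79 and −12.67.

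Neither ime4 mutant library had a listed peak at 120 weak sites (10.7%). A listed 0 is not the same as no reads, since a peak that sits a few nucleotides away does not touch the region, and only 20 of the 1125 sites had no mutant peak within 50 nt. The 5 sites of this kind with the highest Pho92-HTP scores show both situations. On NCSL01000002.1 from 90833 to 90864 on the plus strand, the scores were 0 and 0 in the ime4 mutant, against 0.773 and 0.887 in Pho92-HTP, and the highest mutant scores within 50 nt were 0 and 0.000356. On NCSL01000039.1 from 76763 to 76791 on the minus strand, the region's scores were likewise 0 and 0 in the ime4 mutant, against 0.738 and 0.829 in Pho92-HTP. Here, however, peaks of 0.564 and 0.403 stood within 50 nt in the mutant. The site on NCSL01000004.1 at 97691 was between these cases, with 0.00725 and 0.123 within 50 nt in the mutant. Taking the highest score within 50 nt of each site, the median difference over all weak sites was −5.45 in place of −6.70.

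The weak sites that were as high or higher without IME4 were few. The highest difference belonged to a site on NCSL01000052.1 from 30821 to 30862 on the minus strand, which scored 0.733 and 0.394 in the ime4 mutant, against 0.172 and 0.137 in Pho92-HTP. Its difference was 1.81 ± 0.70 (SE), and it lay 23 nt from a strong site that scored 0.354 and 0.152 in the ime4 mutant, against 3.48 and 2.50 in Pho92-HTP. The highest scores within 50 nt of the weak site were 0.733 and 0.394 in the ime4 mutant, against 0.352 and 0.417 in Pho92-HTP, so by that measure the groups overlapped. A site on NCSL01000005.1 from 194850 to 194930 on the plus strand scored 0.555 and 0.442 in the ime4 mutant, against 0.187 and 0.115 in Pho92-HTP, a difference of 1.76 ± 0.67. On NCSL01000008.1, 2 sites of the plus strand at 323166 and 323292 had differences of 1.31 and 1.32. The fifth was on NCSL01000023.1 at 61947, with 0.717 and 0.312 in the ime4 mutant against 0.330 and 0.135 in Pho92-HTP. At the first 4 of these 5 sites both mutant libraries were above both Pho92-HTP libraries, at the fifth the groups overlapped, and none of the 5 was called by limma.

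Peaks in the control libraries were present at a minority of weak sites and were mostly very small. A peak touched 172 and 133 weak sites without UV (15.3% and 11.8%), and 182 and 147 sites in untagged WT (16.2% and 13.1%). At least 1 of the 4 control libraries had a peak at 433 weak sites (38.5%), against 54.1% of all 2681 tested regions. All 4 had one at 8 weak sites. The listed control peaks had median summits of 2.00 and 2.00 read equivalents without UV and of 2.00 and 2.68 in untagged WT. At no weak site did a control score exceed the lower Pho92-HTP score, which the rule holds at 0.1 or more. A control score exceeded the higher ime4 mutant score at 12 and 14 sites without UV, and at 16 and 6 in untagged WT. The highest control scores were 0.0245 and 0.0261 without UV, both at a site on NCSL01000023.1 from 138531 to 138563 on the plus strand, and 0.0536 and 0.0254 in untagged WT. The site with the highest no UV scores had no peak in untagged WT and scored 0.206 and 0.201 in the ime4 mutant, against 0.163 and 0.828 in Pho92-HTP.

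In limma over 2686 regions, 1125 weak sites were higher in Pho92-HTP than in untagged WT, where 94.6% of all tested regions were, and 1124 were higher in Pho92-HTP than without UV, where 94% were. The rule required a Pho92-HTP score of at least 0.1, so these counts follow largely from the choice of sites. The mutant was also above the controls at many weak sites. It was called higher than untagged WT at 727 weak sites (64.6%), where 71.3% of all tested regions were, and higher than no UV at 732 sites (65.1%), where 70.6% were. The median log2 difference of the mutant over untagged WT was 6.57 at the weak sites, against 8.36 over all tested regions. With control values mostly at 0, these differences rest on the pseudocount. With a pseudocount of 0.01 the mutant was called above untagged WT at 373 of the 1125 weak sites and above no UV at 374. Over all 2686 tested regions the same counts were 1205 and 1184. The ime4 mutant and the Pho92-HTP comparisons with a control group share its 2 libraries.

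Signal above the controls in the mutant was spread unevenly over the 4 classes. The mutant was called above untagged WT at 95 of the 462 sites with a difference below −8, at 283 of 309 from −8 to −4, at 145 of 148 from −4 to −2 and at 204 of 206 within 2 of zero. Against no UV the same counts were 93, 285, 148 and 206. Over all 2686 tested regions the mutant was called above untagged WT at 71.3% and above no UV at 70.6%. Among the 919 sites below −2, the mutant was called above both control groups at 519, for which no count over all tested regions was made. The classes are cut from the same mutant values, so their order in these counts is set by their definition.

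No UV against untagged WT was the only contrast between 2 groups that the rule did not use. Its spread was still estimated over all 8 libraries, the 4 of the rule included. The weak sites entered the fit through their Pho92-HTP scores, so its calls are not wholly separate from the rule. In limma, 3 weak sites were called lower without UV and 1 higher, where 0.67% of all tested regions were lower and 1.6% higher, and 43 weak sites had an unadjusted p below 0.05. The site called higher was the one on NCSL01000023.1 at 138531, with 0.0245 and 0.0261 without UV against 0 and 0 in untagged WT (adjusted p = 0.00434, limma). The 3 called lower, named after their values were seen, were on NCSL01000002.1 at 61396, on NCSL01000016.1 at 82214 and on NCSL01000025.1 at 48430. At 82214 the scores were 0 and 0 without UV, against 0.00188 and 0.00156 in untagged WT. The balance of these few calls turned without no UV replicate 1 and with the factors of the deposited table. Those factors gave 4 lower and 7 higher at weak sites, and 19 lower and 82 higher over all 2686 tested regions. The number of calls also changed when any other control library was left out. No call was made with a pseudocount of 0.001 (4 sites at an unadjusted p below 0.05) or of 0.01 (1 site).

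Control peaks and the position of the peaks also differed between the classes. A peak in any control library was present at 24.0% of the sites below −8 (Wilson 95% interval 20.4% to 28.1%), at 28.8% from −8 to −4, at 54.7% from −4 to −2, and at 73.8% within 2 of zero (67.4% to 79.3%). The peak position in Pho92-HTP varied more in the classes nearer zero. The peak centre, taken as the midpoint of start and end, moved between the 2 Pho92-HTP replicates by a median of 1.0, 2.0, 3.5 and 4.25 nt in the 4 classes. It stayed within 5 nt at 91.99% of the sites below −8 and at 55.3% of those within 2 of zero. Between the 2 ime4 mutant replicates the centre moved by 11.5 nt in the class below −8, where 126 sites had a peak in both, and by 4.5 nt in the class within 2 of zero. Regions were merged over peaks of the mutant too, so a site with few mutant peaks is shorter by construction and has less length for a control peak to touch. Within 50 nt of the site, a control peak was present at 33.8%, 39.8%, 64.2% and 86.4% of the sites in the 4 classes. The median region length was 41, 59, 63 and 53 nt in the 4 classes. RNA abundance was not measured in these libraries, and the part that control peaks and peak shape have in the retained signal was not tested.

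**Figure D2:**
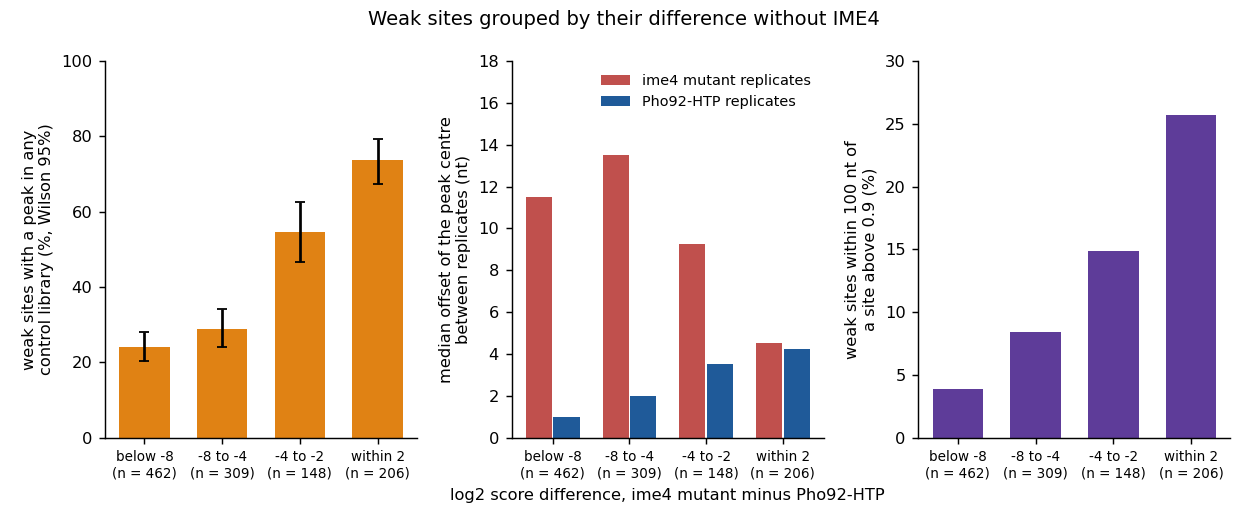
Weak sites grouped by the log2 score difference of the ime4 mutant minus Pho92-HTP, from below −8 to within 2 of zero. Panels give the share with a peak in any control library (%, Wilson 95% interval as error bar), the median offset of the peak centre between replicates (nt) and the share within 100 nt of a strong site (%). The share with a control peak is 24.0% in the lowest class and 73.8% in the highest, and the share near a strong site is 3.90% and 25.7%.

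Most weak sites lay far from any strong site. The distance from a weak site to the nearest strong site on the same contig and strand had a median of 5835.5 nt, with quartiles of 717 and 18058 nt and a range from 9 to 185061 nt. No strong site was present on the same strand of the contig for 29 weak sites. A strong site lay within 50 nt of 69 weak sites (6.13%), within 100 nt of 119 (10.6%, Wilson 95% interval 8.91% to 12.5%), within 1000 nt of 314 (27.9%) and within 5000 nt of 513 (45.6%). For regions weak in 1 Pho92-HTP library only, the median was 6380 nt and the share within 100 nt was 9.65%. Strong sites were closer to each other, with a median of 3585 nt to the next and 20.7% within 100 nt. Within 1000 nt, the strong site was downstream (3′) of 176 weak sites and upstream (5′) of 138, and within 100 nt the counts were 59 and 60. No test of the difference between these sets was made. Counting a site as strong when it was above 0.9 in at least 1 of the 4 libraries put the median distance of the weak sites at 3543 nt, and counting either strand put it at 3798.5 nt.

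The sites farthest from any strong site were on 2 contigs. The weak site on NCSL01000015.1 from 264715 to 264797 on the plus strand lay 185061 nt from the nearest one. It scored 3.82e-05 and 0.0184 in the ime4 mutant, against 0.491 and 0.248 in Pho92-HTP, so its mutant replicates were far apart. On the same strand at 235796, 156142 nt from a strong site, no mutant peak was listed within 50 nt, and the Pho92-HTP scores were 0.179 and 0.369. The site on NCSL01000004.1 from 265831 to 265864, at 125206 nt, scored 0.000153 and 0.000200 in the ime4 mutant, against 0.105 and 0.209 in Pho92-HTP. None of the 5 farthest sites had a peak in a control library.

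Weak sites far from a strong site were lower in the mutant than those close to one. The median log2 difference was −2.61 for the 119 sites within 100 nt (quartiles −5.21 and −0.98), −4.16 for the 195 sites over 100 and up to 1000 nt away, and −7.57 for the 782 sites beyond 1000 nt (quartiles −10.90 and −4.41). The 29 sites without a strong site on their strand had a median of −8.54. The order also held in finer steps, with medians of −3.57 from 100 to 200 nt, −4.31 from 200 to 500 nt, −5.02 from 500 to 1000 nt, −7.09 from 1000 to 5000 nt and −7.72 beyond. Within the closest 100 nt it did not, since the 69 sites up to 50 nt had a median of −2.89 and the 50 sites from 50 to 100 nt one of −2.09. The share below −2 was 55.5% within 100 nt (Wilson 95% interval 46.5% to 64.1%), 70.8% from 100 to 1000 nt and 88.1% beyond (85.7% to 90.2%).

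**Figure D3:**
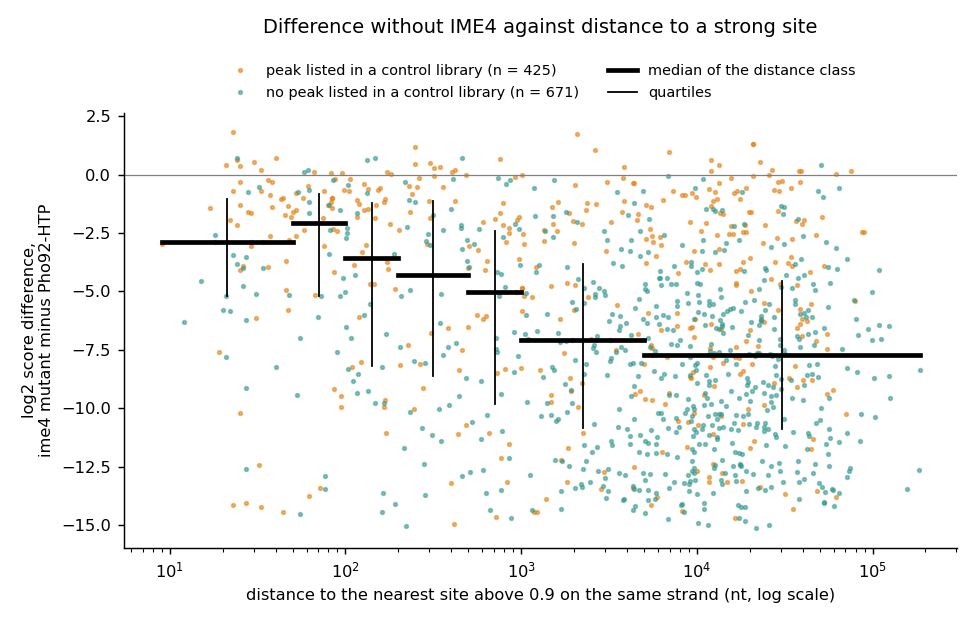
Log2 score difference of the ime4 mutant minus Pho92-HTP (vertical axis) against the distance to the nearest strong site on the same strand (horizontal log axis, nt), 1 point per weak site, coloured by whether a control library had a peak there. Black bars are medians and thin lines quartiles of the finer distance classes, with medians of −2.89 up to 50 nt and −7.72 beyond 5000 nt. The medians of the wider classes, −2.61 within 100 nt and −7.57 beyond 1000 nt, are not drawn.

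The scores behind these differences are as follows. Within 100 nt the median scores were 0.0557 and 0.0699 in the ime4 mutant, against 0.353 and 0.302 in Pho92-HTP. Between 100 and 1000 nt they were 0.0164 and 0.0221 in the ime4 mutant, against 0.265 and 0.290 in Pho92-HTP. Beyond 1000 nt they were 0.00185 and 0.00216 in the ime4 mutant, against 0.261 and 0.269 in Pho92-HTP. The choice of sites holds the Pho92-HTP scores between 0.1 and 0.9, so that only the mutant scores could vary widely with distance. Control peaks moved with distance as well, being present at 62.2% of the sites within 100 nt, 48.7% from 100 to 1000 nt and 32.7% beyond. Among sites with no control peak, the medians of the 3 distance classes were −4.54 (n = 45), −6.78 (n = 100) and −8.61 (n = 526). Among sites with one they were −1.67, −2.50 and −4.75. The order of the distance classes was thus present in both sets, and at every distance the sites with a control peak were nearer to zero. When the highest score within 50 nt replaced the region's own, the medians were −2.99, −2.98 and −6.18, so that the 2 nearer classes had nearly equal medians. That measure can take in the strong site's own peak at the 69 weak sites up to 50 nt from one. By it the median was −4.39 at those 69 sites and −1.71 at the 50 sites from 50 to 100 nt. Without spike-in scaling the median within 100 nt was −1.73, and with a pseudocount of 0.01 the median beyond 1000 nt was −4.18, against −2.33 within 100 nt.

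The state of the neighbouring strong site in the mutant was compared next. Among the 314 weak sites within 1000 nt of a strong site, that neighbour was above 0.9 in neither mutant library for 260, in 1 for 11 and in both for 43. The median difference of the weak sites was −3.84, −1.14 and −2.83 in these 3 sets, while that of their neighbours was −8.92, −2.02 and −0.15. The gap between the first set and its neighbours follows largely from the choice of sites by Pho92-HTP score. The weak sites of that set had median scores of 0.0217 and 0.0280 in the ime4 mutant, against 0.297 and 0.294 in Pho92-HTP. Their neighbours had 0.0266 and 0.0328 in the ime4 mutant, against 3.99 and 4.14 in Pho92-HTP. Beside a strong site that stayed above 0.9 in both mutant libraries, weak sites scored 0.0579 and 0.0821 in the ime4 mutant, against 0.338 and 0.360 in Pho92-HTP. Within 100 nt the medians were −2.89 for 101 sites beside a neighbour above 0.9 in neither library and −1.60 for 15 beside one above it in both.

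Across weak sites, the difference of a site and that of its strong neighbour were only loosely related. Within 100 nt Spearman's rho was 0.34 and Pearson's r 0.11 (n = 119 weak sites with 105 different neighbours). Within 1000 nt they were 0.26 and 0.18 (n = 314 with 222 neighbours), and beyond 1000 nt 0.01 and 0.00 (n = 782 with 354 neighbours). These values are descriptions across sites. The points share the same 4 libraries and their scaling, and weak sites with the same neighbour share its value.

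**Figure D4:**
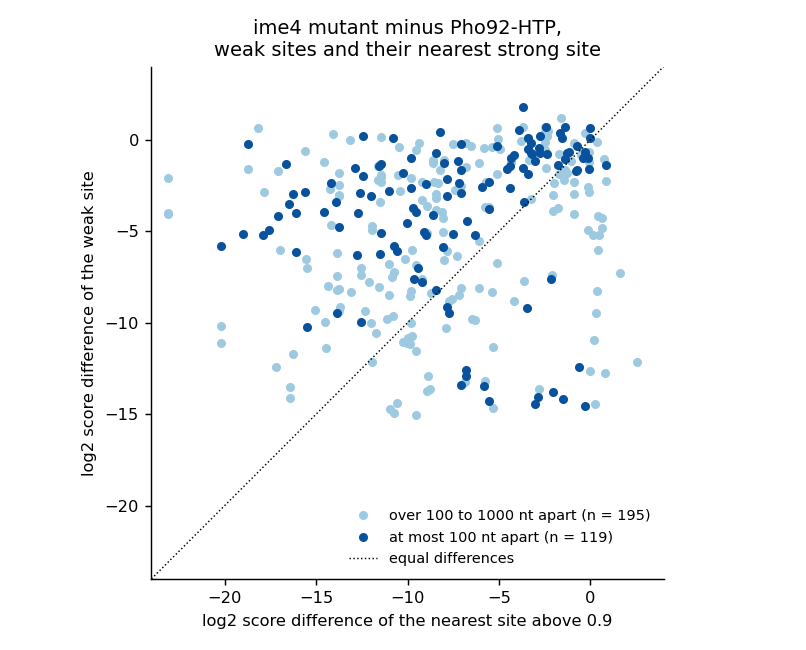
Log2 score difference of the ime4 mutant minus Pho92-HTP for weak sites within 1000 nt of a strong site (vertical axis) against that of the nearest strong site (horizontal axis), 1 point per weak site, coloured by distance. The dotted line marks equal differences. The neighbours that were above 0.9 in neither mutant library had a median of −8.92 and the weak sites beside them one of −3.84.

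Set beside the other sites, the weak ones were intermediate in some measures. The median difference of the ime4 mutant minus Pho92-HTP was −6.70 at weak sites, −8.37 at the 822 strong sites and −4.29 at the 1793 regions weak in 1 Pho92-HTP library only. Where all 4 libraries had a peak, the height was 4.70-fold lower in the mutant at weak sites, 10.05-fold lower at 665 strong sites and 2.54-fold lower at 1024 of the regions weak once. The share below −2 ran otherwise, at 81.7% of weak sites, 76.0% of strong sites and 68.9% of the regions weak once. No mutant peak was listed at 10.7% of weak sites, 4.62% of strong sites and 14.5% of the regions weak once. A control peak was found at 38.5%, 68.2% and 29.8%, in the same order. The floor of the pseudocount lets a high site fall further than a low one, and the 3 sets were cut by score in the same libraries, so no test was made between them.

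Sites were also grouped by their level within the window. Sites with a mean Pho92-HTP score from 0.1 to 0.2 had a median difference of −5.93 (n = 276), those from 0.2 to 0.3 one of −6.76 (n = 292), those from 0.3 to 0.5 one of −7.30 (n = 376) and those from 0.5 to 0.9 one of −7.31 (n = 181). The share below −2 lay between 79.0% and 83.2% in these 4 bands. The Pho92-HTP score that forms the bands is also part of the difference, so a lower difference in a higher band follows from the arithmetic and is not read as a trend. Control peaks were more common at the higher sites, at 31.5%, 37.7%, 38.3% and 50.8% of them in ascending order. The median distance to a strong site was 6777.5, 6197, 5390.5 and 4401 nt in the same order.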

How the data were processed

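The authors deposited a peak list per library on SK1 contigs and a table of spike-in factors. Per the file headers, each peak has a score (h2w score), and the factor is a ratio to Pho92-HTP replicate 1 whose product with the score is the normalized score. Per the submitters' processing notes, the tools included cutadapt and Bowtie2 2.4.1, with fission yeast build ASM294v2. The peak caller and whether positions count from 0 or 1 are not given in the sources used here, and positions are printed as listed. No sequence or gene is given, since the reference used here is of another strain.

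Sheets were matched to samples by name. The members, classes and tests were chosen with earlier results of these data known. Differences were fitted with limma 3.58.1 (R 4.3.3, trend) on log2 scores after adding 2.28e-05 (percentile 5 of the listed normalized scores), over regions at or above 0.1 in at least 2 libraries of the fit (2681 of 4 libraries, 2686 of 8). All 1125 weak sites passed that filter because the rule guarantees it. Adjusted p-values (Benjamini-Hochberg, threshold 0.05) cover all regions tested. The plan foresaw limma for any unit other than counts. The fit was tested on simulated scores. Wilson 95% intervals cover counting of sites only. P-values measure the spread between replicate libraries, shared over the groups of a fit. The ime4 mutant and Pho92-HTP were compared in a fit of their 4 libraries. Every contrast with a control group came from a fit of all 8, where control values were mostly 0. The median SE at weak sites was 1.08 in the first fit and 0.893 in the second. Fitted on all 8 libraries, the mutant was called below Pho92-HTP at 820 weak sites and at 1625 of all 2681 tested regions. Named sites are the 5 lowest and 5 highest differences with a peak in all 4 libraries, the 5 highest without a mutant peak, the 5 farthest, the 5 highest in each control group, those next to the limits and the densest 1000 nt; not all are printed. The sites called between the control groups are named as well. Other tools were Python 3.11.15 and pandas 2.3.3.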

Additional observations from a re-analysis of the deposited data

How the results depend on the processing

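No median or share changed sign under any alternative run. The balance of the few calls between no UV and untagged WT did turn. It was 3 weak sites lower and 1 higher as reported, and 4 lower and 7 higher with the factors of the deposited table. It also turned without no UV replicate 1. With the highest score within 50 nt, the order of the classes within 100 nt (−2.99) and from 100 to 1000 nt (−2.98) was lost. That measure can take in the strong site's own peak up to 50 nt away, where the median was −4.39, against −1.71 from 50 to 100 nt. Values of the weak sites are log2 differences of the ime4 mutant minus Pho92-HTP unless said otherwise. The median over all weak sites was −5.88 and −3.98 with pseudocounts of 0.001 and 0.01, −5.79 without spike-in scaling, −5.77 with a trimmed mean of log ratios, −6.76 with the highest peak, −5.45 with the highest score within 50 nt and −7.41 with a lower limit of 0.2. The median within 100 nt of a strong site was −2.33 with a pseudocount of 0.01, −1.73 without spike-in scaling, −1.61 with the trimmed mean and −2.99 with the highest score within 50 nt. The median beyond 1000 nt was −6.34 and −4.18 with the 2 pseudocounts, −6.63 without scaling, −6.60 with the trimmed mean, −6.18 within 50 nt, −8.43 with the limit of 0.2 and −7.78 with strong sites defined in at least 1 of the 4 libraries. Beside a neighbour above 0.9 in neither mutant library, the median was −2.96 (pseudocount 0.01), −2.95 (no scaling), −2.84 (trimmed mean), −3.26 (within 50 nt) and −4.18 (strong in at least 1 library). Beside one above 0.9 in both, it was −1.95, −1.83, −1.38 and −4.16 under the last 4 of these settings, and −2.22 with the limit of 0.2, so that with strong sites defined in 1 library these 2 sets had nearly equal medians. The trimmed mean moved the median of all tested regions to −5.03, against −6.02 with spike-in scaling. Under it limma called 513 weak sites lower in the mutant and 2 higher, where 1201 and 55 of all 2681 tested regions were.

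The share with both mutant libraries below both Pho92-HTP libraries was 73.1% without scaling and 92.1% with the limit of 0.2. The share without a mutant peak was 1.78% within 50 nt and 13.2% with the limit of 0.2. The share within 100 nt of a strong site was 12.6% with the limit of 0.2 and 14.3% with strong sites defined in 1 library, which put the median distance at 3543 nt, while counting either strand put it at 3798.5 nt. The rule gave 554 weak sites with the limit of 0.2, 742 with an upper limit of 0.5 and 302 without scaling. With a pseudocount of 0.01, the mutant was called above untagged WT at 373 and above no UV at 374 weak sites. Over all 2686 tested regions these counts were 1205 and 1184. Calls of no UV against untagged WT numbered 1 with no filter on low scores, 0 with either larger pseudocount (limma, with 4 and 1 sites at an unadjusted p below 0.05), 50 with the trimmed mean (26 lower, 24 higher) and 11 with the factors of the deposited table. Over all 2686 tested regions the trimmed mean gave 69 lower and 132 higher, and those factors gave 19 lower and 82 higher.

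Leaving out 1 library at a time gave medians of −6.84 to −6.16 over all weak sites, −2.48 to −2.26 within 100 nt, −7.58 to −7.02 beyond 1000 nt, −3.75 to −3.26 beside a neighbour above 0.9 in neither mutant library and −3.17 to −2.52 beside one above it in both. The share with mutant below Pho92-HTP was 92.2% to 92.4%, and the share without a mutant peak 18.4% to 23.7%, against 89.2% and 10.7% with all libraries. With a library left out fewer values have to meet the condition, so neither share could fall. Calls numbered 161 to 779 for the mutant against Pho92-HTP and 2 to 24 for no UV against untagged WT, the lone library of a group being assumed to vary like the others. As alternatives chosen after seeing the data, sites with no control peak gave medians of −8.10 (all), −4.54 (within 100 nt) and −8.61 (beyond 1000 nt), and sites with a peak in all 4 libraries gave −4.46, −1.77 and −5.52.

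Replicate numbers did not pair the samples, as deviations of same-numbered libraries correlated between −0.0189 and 0.0421 over 2686 regions. With the replicate number as a block, the mutant was called below Pho92-HTP at 541 weak sites and at 1297 of all 2681 tested regions. Pho92-HTP was called above untagged WT and no UV at 1122 and 1125 weak sites, and at 2541 and 2521 of all 2686 tested regions. The mutant was called above them at 724 and 727 weak sites, and at 1908 and 1878 of all tested regions. No UV against untagged WT gave 3 calls at weak sites, with 11 lower and 36 higher over all tested regions. Read depth is unknown, so a listed 0 sets no limit on binding.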

Other observations

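Weak sites were spread over 77 of the 106 contigs in the lists, with 573 on the plus strand and 552 on the minus strand. Among the 37 contigs whose listed peaks reach 100000 nt or more, which hold 935 weak sites, the median density was 10.4 weak sites per 100000 nt, against 7.20 strong sites. The density of weak sites was lowest on NCSL01000009.1, with 18 weak and 25 strong sites (5.18 weak sites per 100000 nt), and highest on NCSL01000021.1, with 30 weak and 15 strong sites (16.5 per 100000 nt).

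Weak sites also stood near each other. The next weak site on the same strand was at a median of 2976 nt, and 394 sites (35.02%) had one within 1000 nt, forming 146 runs of up to 8 sites.

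The densest stretch of 1000 nt held 6 weak sites, on NCSL01000003.1 between 28201 and 29127 on the minus strand. Their log2 differences were −0.58, 0.45, −0.54, 0.71, −0.13 and 0.00, so none was reduced in the mutant beyond a difference of 2. The site at 28201 scored 0.504 and 0.242 in the ime4 mutant, against 0.745 and 0.368 in Pho92-HTP, and the site at 28504 scored 0.197 and 0.422 in the ime4 mutant, against 0.166 and 0.186 in Pho92-HTP. The nearest strong site, from 27988 to 28044, scored 0.759 and 0.261 in the ime4 mutant, against 3.24 and 1.97 in Pho92-HTP, a difference of −2.50.

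A strong site on the opposite strand was rare near weak sites, with 3 within 100 nt and 51 (4.53%) within 1000 nt.

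The highest untagged WT score at a weak site was 0.0536 in replicate 1, on NCSL01000016.1 from 76907 to 77065 on the plus strand, where replicate 2 scored 1.82e-05 and neither no UV library had a peak. That site scored 0.180 and 0.0717 in the ime4 mutant, against 0.589 and 0.429 in Pho92-HTP. On NCSL01000024.1 at 65116, a weak site 21 nt from a strong one had peaks in all 4 control libraries, of 3.79e-05 and 0.00578 without UV and of 0.000894 and 0.00457 in untagged WT. It scored 0.291 and 0.263 in the ime4 mutant, against 0.146 and 0.302 in Pho92-HTP, while its strong neighbour scored 0.0270 and 0.0207 in the ime4 mutant, against 8.19 and 5.95 in Pho92-HTP.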
